A study of Homo sapiens with 8 samples.

Results

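The 9 genes described here are MCL1, BCL2L1, BCL2L11, BID, FAS, CASP8, CFLAR, CASP9 and CASP2, all of which act in apoptosis and are known to be spliced into more than 1 isoform. Every splicing event that the deposited tables list under these gene symbols was taken. This gave 54 events in whole cells, which fall on 39 alternative segments, of 89379 events in all, and 45 events in the cytoplasm, on 40 segments, of 43559. The genes were 9 of 12047 with events. The RNA came from U2OS cells, a human osteosarcoma line, 48 h after transfection of 20 nM siRNA into cells at 20% confluency as labelled, for which the study's methods give a higher value. Control cells received EGFP siRNA, whose target the cells do not carry, and the others received CHERP#2 siRNA, 1 siRNA sequence against CHERP, a nuclear protein that associates with the U2 small nuclear ribonucleoprotein. Whole-cell and cytoplasmic RNA was collected, and 2 biological replicates of each of the 4 groups made 8 libraries. The study asked how loss of CHERP alters splicing, and the comparisons made here were CHERP against EGFP siRNA in each fraction and the difference between fractions.

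Apoptosis begins either at death receptors such as FAS, which activate caspase-8, or at mitochondria, where pro-survival and pro-death members of the BCL2 family decide on the release of cytochrome c and thereby on the activation of caspase-9. Many of these genes are transcribed into pre-mRNAs that can yield proteins of opposite activity. MCL1 and BCL2L1, for example, encode pro-survival proteins in their long forms and pro-death proteins in their short forms, and their splice sites are known to respond to loss of U2 small nuclear ribonucleoprotein components.

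The segments on which the best known of these switches turn follow. They are read 5′ to 3′ on the strand of the gene from GRCh37, the assembly called hg19 in the study. Inclusion reads given later lie inside a segment or on its junctions, and skipping reads lie on the junction that leaves it out. In the first 3 sequences the capitals mark the cassette exon, and lower case letters mark 20 bases of the intron before it and 6 bases of the intron after it. These are the middle exon of MCL1 (chr1:150550714-150550987, minus strand), the exon for the membrane segment of FAS (chr10:90770490-90770578, plus strand) and the cassette exon of CASP2 (chr7:142997453-142997539, plus strand).
MCL1 exon 2: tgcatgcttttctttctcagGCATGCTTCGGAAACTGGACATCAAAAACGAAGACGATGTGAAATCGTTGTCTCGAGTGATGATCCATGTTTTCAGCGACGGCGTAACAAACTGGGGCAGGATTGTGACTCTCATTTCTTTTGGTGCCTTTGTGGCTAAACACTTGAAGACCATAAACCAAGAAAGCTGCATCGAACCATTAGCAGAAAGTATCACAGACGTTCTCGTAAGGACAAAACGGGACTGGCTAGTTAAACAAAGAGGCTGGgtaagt
FAS exon 6: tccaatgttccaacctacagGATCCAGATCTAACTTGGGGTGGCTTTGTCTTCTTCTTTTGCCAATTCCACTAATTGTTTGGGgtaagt
CASP2 cassette exon: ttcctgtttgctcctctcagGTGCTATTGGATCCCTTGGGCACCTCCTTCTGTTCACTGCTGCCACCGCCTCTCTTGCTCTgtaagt
In BCL2L1 the 9 bases of each competing 5′ splice site are in capitals, the upstream site of the short form first and the downstream site of the long form last (chr20:30309452-30309649, minus strand).
BCL2L1 exon 2 end: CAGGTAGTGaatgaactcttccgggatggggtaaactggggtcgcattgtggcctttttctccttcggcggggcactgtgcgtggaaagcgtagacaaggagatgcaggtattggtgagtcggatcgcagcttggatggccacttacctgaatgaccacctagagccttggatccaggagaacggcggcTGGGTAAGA
In BCL2L11 the capitals mark the stretch inside exon 2 that is removed as an intron in the shorter forms (chr2:111881444-111881629, plus strand).
BCL2L11 inner intron: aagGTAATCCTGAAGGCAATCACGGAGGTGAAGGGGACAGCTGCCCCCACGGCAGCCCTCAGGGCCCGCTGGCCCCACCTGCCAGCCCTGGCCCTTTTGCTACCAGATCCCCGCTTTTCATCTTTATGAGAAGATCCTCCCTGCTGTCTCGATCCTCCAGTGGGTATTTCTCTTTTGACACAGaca
The start of CASP2 intron 8, in capitals after the last 3 bases of the exon before it, is shown because reads in this intron gave the lowest p of the 9 genes in the cytoplasm (chr7:142997385-142997393, plus strand).
CASP2 intron 8 5′ site: gagGTGAGT

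CHERP itself was lower in the libraries labelled CHERP siRNA. In whole cells 103 and 77 reads on its events were found after EGFP siRNA and 3 and 10 after CHERP siRNA, a log2 fold change in abundance of -3.45 (SE 0.61, limma adjusted p = 0.0206). In the cytoplasm it had 31 and 21 reads against 3 and 4, below the read minimum of the test. Reads summed over all events ranged from 29409956 to 35664568 per whole-cell library and from 5370756 to 6580099 per cytoplasmic library. Of the markers examined, 3 of 7 mesenchymal genes (VIM, FN1 and RUNX2) and 2 of 4 epithelial genes (KRT8 and CDH1) had events, whereas 0 of 3 leukocyte genes and 0 of 1 hepatocyte gene had any. Summed whole-cell reads of the mesenchymal markers were 70114 to 81279 after EGFP siRNA and 88596 to 97739 after CHERP siRNA, and those of the epithelial markers 15512 to 19316 and 12320 to 12734. In the cytoplasm the ranges were 8913 to 9014 and 9365 to 11441 for the mesenchymal and 688 to 722 and 459 to 585 for the epithelial markers. KRT8 was lower in the cytoplasm (log2 fold change -0.50, SE 0.11, limma adjusted p = 0.0283), and in whole cells CDH1 had 1 and 1 reads against 22 and 15 and RUNX2 16 and 18 against 0 and 3. The part of these differences in the results that follow was not tested.

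No isoform switch of the 9 genes passed the quasi-binomial test used here after CHERP siRNA. The inclusion level of a segment is the share of transcripts that carry it, computed from the reads of each form divided by the effective length of that form. With the quasi-binomial test, 0 of the 54 whole-cell events and 0 of the 45 cytoplasmic events had an FDR under 0.05, beside 1.12% of all events tested in whole cells and 0.409% in the cytoplasm. An unadjusted p under 0.05 was found for 3 and 1 of them. A limma fit of the log2 odds gave 6 and 4 unadjusted values under 0.05 and called 0 events of any gene in either fraction. Most segments of these genes were used almost always or almost never in control cells. After EGFP siRNA the mean level was above 0.8 for 19 of the 39 whole-cell segments and below 0.2 for 7, and for 21 and 6 of the 40 cytoplasmic segments. A segment was covered by a median of 76.5 reads per library in whole cells, with a range of 5.25 to 1256.25, and by a median of 26.1 in the cytoplasm, with a range of 2.75 to 339. Since bulk RNA was measured, fewer cells of a kind and less RNA per cell cannot be told apart in any value that follows.

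MCL1, a short-lived pro-survival protein of the BCL2 family, loses its reading frame and its membrane anchor when exon 2 of its 3 exons is skipped. This exon (chr1:150550720-150550967, 248 nt) is coding, and an open reading frame of 350 codons with it becomes 271 codons without it. In whole cells the inclusion level was 0.989 and 0.974 after EGFP siRNA and 0.980 and 0.983 after CHERP siRNA. Skipping was rare in all 4 libraries, with 4 and 10 skipping reads beside 967 and 1033 inclusion reads in control cells and 12 and 9 beside 1576 and 1414 after CHERP siRNA. The means were 0.982 ± 0.0103 and 0.981 ± 0.00232 (SD, n = 2), and the odds ratio was 1.01 with a 95% interval from 0.354 to 2.87 (FDR = 1). Cytoplasmic levels were 0.946 and 0.985 against 0.967 and 1, with 8 skipping reads among the 4 libraries. The groups overlapped in both fractions, and the cytoplasmic odds ratio of 1.93 had an interval from 0.310 to 12.0 (FDR = 0.762).

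BCL2L1 encodes the pro-survival protein BCL-XL when the downstream 5′ splice site of exon 2 is used and the pro-death protein BCL-XS when the upstream site is used. The segment between both sites (chr20:30309458-30309646, minus strand, 189 nt, coding) keeps the frame and separates 233 from 170 codons. In whole cells the level of the long form was 0.976 and 0.960 after EGFP siRNA and 0.985 and 0.984 after CHERP siRNA. The CHERP libraries were both above the EGFP libraries, by 0.0167 on average, from 8 and 16 reads of the short form against 8 and 7. The odds ratio was 2.16 (95% interval 0.841 to 5.55) and did not pass the test (unadjusted p = 0.103, FDR = 0.766). Without the first or the second EGFP library the difference was 0.0245 or 0.00891. In the cytoplasm the levels were 0.857 and 0.864 against 0.948 and 0.856. Here the second CHERP library lay below both control libraries, and the odds ratio was 1.51 (0.672 to 3.39, FDR = 0.83). ABALON, an annotated antisense long noncoding gene, overlaps this segment, and the sources used here do not state how strand was used in counting, so its reads cannot be told apart from those of BCL2L1.

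BCL2L11 encodes the BH3-only protein BIM, which activates the pore-forming members of the family, and its EL, L and S forms differ in how much of exon 2 is kept. Retention of the inner intron (chr2:111881447-111881626, 180 nt) gives the EL form of 198 codons and its removal the L form of 138, while use of the upstream end of the exon removes 270 nt (chr2:111881447-111881716) and leaves the S form of 108. In whole cells the inner intron was kept at 0.491 and 0.288 after EGFP siRNA and at 1 and 0.229 after CHERP siRNA, from 5 to 42 reads per library. The CHERP libraries lay on both sides of the controls, and 95% Wilson intervals of the shares reached from 0.481 to 1 in the first and from 0.0559 to 0.597 in the second. In the cytoplasm, where 13 to 41 reads fell on the event, levels were 0.116 and 0.130 against 0.366 and 0.0498, again with CHERP libraries on both sides of the controls. The odds ratios were 2.55 (0.318 to 20.5, FDR = 0.809) in whole cells and 1.67 (0.586 to 4.78, FDR = 0.796) in the cytoplasm.

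The S form of BCL2L11 had few reads. The 270-nt segment was included at 0.594 and 1 after EGFP siRNA and at 0.489 and 0.709 after CHERP siRNA in whole cells, and at 0.783 and 0.802 against 1 and 1 in the cytoplasm. The sign differed between fractions, but the S form rested on 10 whole-cell and 2 cytoplasmic reads in all, and the odds ratios of 0.359 (0.0508 to 2.54, FDR = 0.838) and 3.22 (0.0799 to 130, FDR = 0.83) had wide intervals. The last 90 nt of the exon (chr2:111881627-111881716), listed as a cassette exon of their own, had whole-cell levels of 0.615 and 1 against 0.316 and 0.831. Their cytoplasmic levels were 0.929 and 0.935 against 1 and 1. All BCL2L11 segments listed lie opposite MIR4435-2HG, an antisense long noncoding gene, with the same limit on strand as for BCL2L1.

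BID is a BH3-only protein that caspase-8 cleaves to carry the death receptor signal to mitochondria. Exon 3 (chr22:18226569-18226779, minus strand, 211 nt) is coding, and the frame falls from 195 to 35 codons when it is skipped. Its whole-cell level was 0.881 and 0.901 after EGFP siRNA and 0.939 and 0.801 after CHERP siRNA, so that the controls lay between the CHERP libraries. Cytoplasmic levels were 0.747 and 0.750 against 0.707 and 0.614, both CHERP libraries below the controls. Odds ratios were 0.828 (0.225 to 3.05) and 0.688 (0.179 to 2.65), with FDR of 0.891 in whole cells and 0.778 in the cytoplasm. Exon 2 (chr22:18232871-18232940, 70 nt, partly 5′ UTR) was skipped by 6 whole-cell and 2 cytoplasmic reads in all, and its levels ranged from 0.884 to 1.

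FAS, a death receptor, is anchored in the membrane by the segment that exon 6 encodes, and the form without this exon is a soluble decoy. The exon (chr10:90770510-90770572, 63 nt, coding) keeps the frame, with 335 codons against 314. Its level in whole cells was 0.830 and 0.933 after EGFP siRNA and 0.987 and 0.905 after CHERP siRNA. The groups overlapped, and the odds ratio was 2.04 (0.408 to 10.2, FDR = 0.784). In the cytoplasm the levels of 0.518 and 0.729 in control cells were below both CHERP libraries, at 0.901 and 0.869. The cytoplasmic means were 0.623 ± 0.149 and 0.885 ± 0.023 (SD, n = 2). These levels rest on 4 and 2 skipping reads against 1 and 3, and the odds ratio of 4.26 (0.720 to 25.2) did not pass the test (unadjusted p = 0.109, FDR = 0.762). Inclusion reads on this exon numbered 28 and 40 after EGFP siRNA and 110 and 137 after CHERP siRNA in whole cells, while skipping reads numbered 4 and 2 against 1 and 10.

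CASP8 encodes the initiator caspase that is recruited to active death receptors. Exon 5 of its 9 exons (chr2:202137621-202137665, 45 nt), in the linker before the caspase domain, keeps the frame (479 codons with it and 464 without). Its whole-cell level was 0.730 and 0.805 after EGFP siRNA and 0.680 and 0.680 after CHERP siRNA. Both CHERP libraries were below both controls, with a mean difference of -0.0880 and an odds ratio of 0.613 (0.326 to 1.15, unadjusted p = 0.128, FDR = 0.784). Without the first or the second EGFP library the difference was -0.125 or -0.0506. Its cytoplasmic levels were 0.816 and 0.939 against 0.844 and 0.944 and overlapped (odds ratio 1.03, 0.224 to 4.76).

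Exon 6 of CASP8 (chr2:202139612-202139676, 65 nt), which shifts the frame when skipped and leaves 235 codons, had whole-cell levels of 0.973 and 0.951 against 0.988 and 0.911. In the cytoplasm it was skipped by 1 read after EGFP siRNA and 1 after CHERP siRNA. An extension of 136 nt at the boundary of exon 7 (chr2:202141692-202141827), which shortens the frame to 276 codons, was present at 0.0276 and 0.0344 against 0.0426 and 0.0164 in whole cells. None of these passed the test, with odds ratios of 0.740 (0.188 to 2.91) for exon 6 and 0.871 (0.286 to 2.65) for the extension in whole cells. The whole-cell events with an unadjusted p under 0.05 were CASP2 intron 8, described with that gene, and 1 further event each of CASP8 exons 5 and 6, read against transcripts that join exon 4 directly to exon 7. These CASP8 events were chosen after their values were seen. In the quasi-binomial test of them, exon 5 had levels of 0.704 and 0.940 against 0.488 and 0.730 (unadjusted p = 0.0357, FDR = 0.784) whereas exon 6 had levels of 0.905 and 0.970 against 0.783 and 0.856 (unadjusted p = 0.0291, FDR = 0.727). Both share the same skipping reads and are not independent of each other.

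CFLAR encodes FLIP, a relative of caspase-8 without protease activity that blocks it at the receptor. Its short form arises from an alternative last exon, and no listed event holds that switch. The measured segment with the most reads was exon 2 (chr2:201994452-201994869, 418 nt). Its whole-cell level was 0.878 and 1 after EGFP siRNA and 0.880 and 0.725 after CHERP siRNA, from 5 and 0 skipping reads against 6 and 15. The groups overlapped, and the odds ratio was 0.310 (0.0672 to 1.43, unadjusted p = 0.0898, FDR = 0.784). The cytoplasmic levels were 0.904 and 1 against 0.904 and 0.803. An antisense gene, CFLAR-AS1, overlaps 1 of the 2 CFLAR segments, and a long noncoding gene on the same strand overlaps 3 of the 12 segments of CASP8.

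CASP9 encodes the initiator caspase of the apoptosome, and its short form lacks exons 3 to 6. No listed event holds this switch in either fraction. The CASP9 segment with the most reads was exon 8 (chr1:15820387-15820496, minus strand, 110 nt), listed in the cytoplasm, which was skipped by 1 read in the first EGFP library and by 0 in the other 3. Its levels were 0.898 and 1 against 1 and 1. In whole cells the gene had 1 event, an alternative start of exon 4, with 9 to 25 reads per library on the gene.

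CASP2 encodes caspase-2, and inclusion of a cassette exon in the late part of the gene gives a truncated short form that is known to oppose the long form. This exon (chr7:142997473-142997533, plus strand, 61 nt) lies within intron 8 of the main transcript, and its inclusion shortens the frame from 452 to 343 codons. It was included at 0.127 and 0.05 after EGFP siRNA and at 0.0962 and 0.130 after CHERP siRNA in whole cells, from 3 to 7 inclusion reads per library. The long form prevailed in every library, and the odds ratio was 1.38 (0.315 to 6.01, FDR = 0.827). Levels in the cytoplasm were 0.0329 and 0.0983 against 0.179 and 0.108. Both CHERP libraries were above both controls, but on 1 to 4 inclusion reads each, and the odds ratio of 2.52 (0.361 to 17.6, FDR = 0.762) did not pass the test.

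Retention of the whole of CASP2 intron 8 (chr7:142997388-143000876, 3489 nt) was lower after CHERP siRNA in every library of both fractions, without passing the FDR threshold. This event was chosen after its values were seen. In whole cells 93 and 141 reads of the retained form stood beside 29 and 40 spliced reads in control cells, and 53 and 51 beside 33 and 33 after CHERP siRNA. The levels were thus 0.113 and 0.123 against 0.0598 and 0.0577, with means of 0.118 ± 0.00694 and 0.0588 ± 0.0015 (SD, n = 2). The odds ratio was 0.466 (0.246 to 0.882, unadjusted p = 0.0191, FDR = 0.269). In the cytoplasm 21 and 10 reads in control cells stood against 1 and 1. The cytoplasmic levels were 0.0262 and 0.0201 against 0.00205 and 0.00227, with an odds ratio of 0.108 (0.0185 to 0.627, unadjusted p = 0.00225, FDR = 0.0849). With the dispersion moderated without a trend, or with a prior from events whose rarer form had 10 or more reads, this FDR fell to 0.0225 and 0.0490. The cassette exon lies within the intron, and reads inside it can count as retention. Its inclusion reads were therefore also subtracted together with its length, an alternative chosen after seeing the data. The whole-cell levels then were 0.108 and 0.122 against 0.0554 and 0.0510, and the cytoplasmic levels 0.0254 and 0.0164 against 0 and 0. In the cytoplasmic CHERP libraries the exon had 4 and 2 inclusion reads, more than the 1 and 1 of the intron. Not all reads of the exon thus count as retention, and the subtraction takes off too much. Remainders below 0 were set to 0, so these 2 levels of 0 are not measured values.

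**Figure D1:**
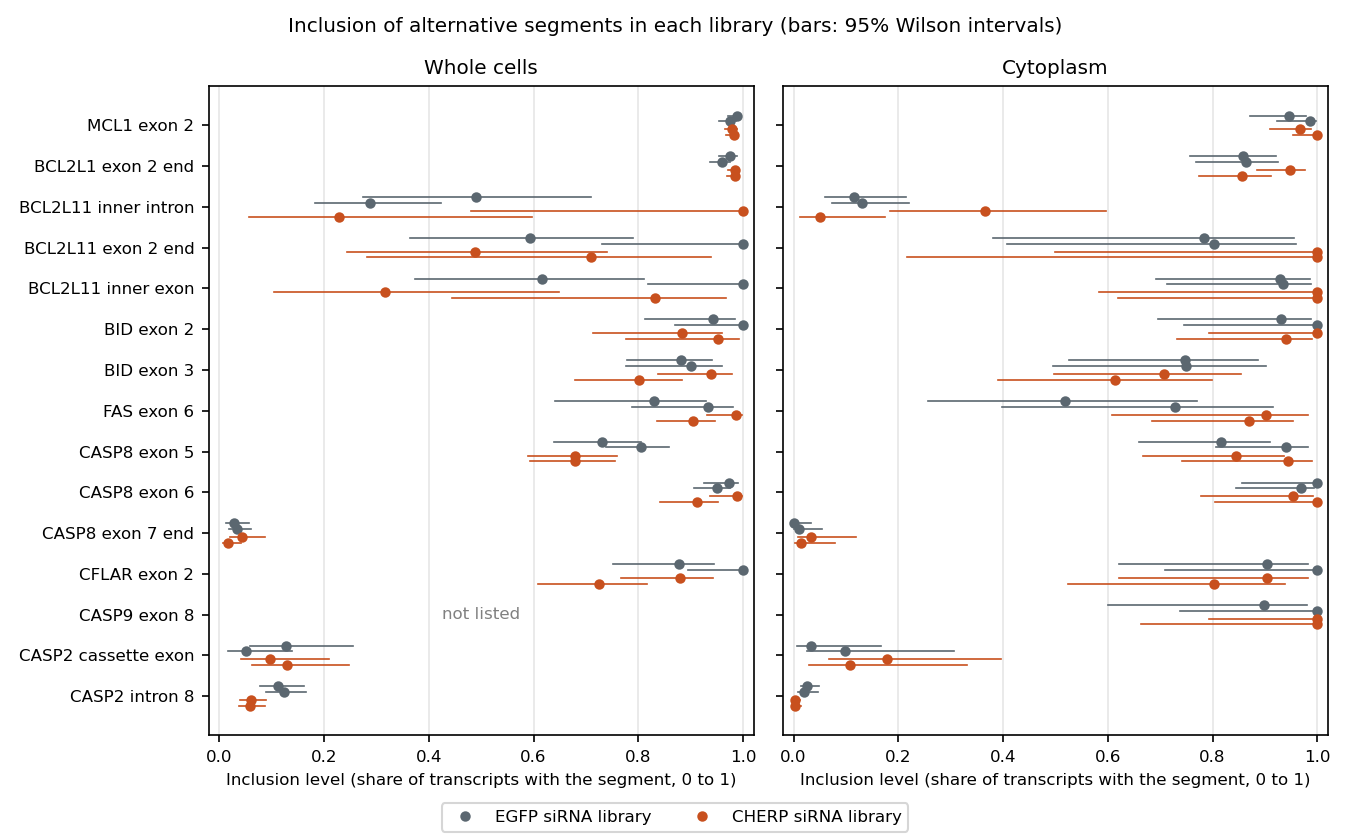
Inclusion level (0 to 1) of each named segment in each library, whole cells left and cytoplasm right, with EGFP siRNA in grey and CHERP siRNA in orange and 95% Wilson intervals as bars. MCL1 exon 2 and the long form of BCL2L1 lie near 1 and CASP2 intron 8 near 0 in all libraries, and the BCL2L11 points spread widely on few reads.

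**Figure D2:**
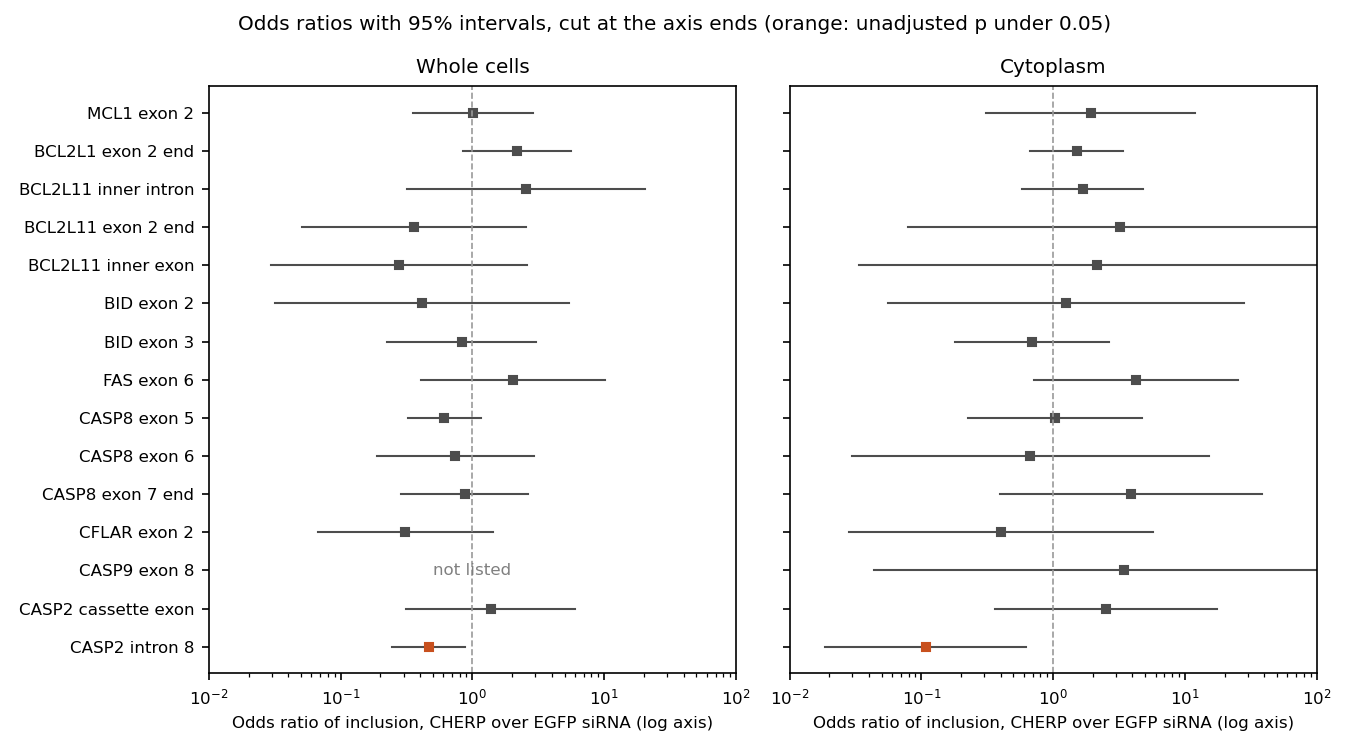
Odds ratio of inclusion, CHERP over EGFP siRNA, on a log axis with 95% intervals cut at the axis ends. Every interval except that of CASP2 intron 8 spans 1, and no segment reached an FDR under 0.05.

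The difference between fractions was tested on the 38 events of 8 of the genes that were listed with the same coordinates in both. None of these passed, with a lowest unadjusted p of 0.0522 and a lowest FDR of 0.921 in the quasi-binomial model, and 0 had an unadjusted p under 0.05. Of all events tested in this way, 0.0327% were called. The p of this interaction was 0.487 for MCL1 exon 2, 0.549 for the BCL2L1 segment, 0.459 for FAS exon 6, 0.558 for the CASP2 cassette exon and 0.0849 for CASP2 intron 8. The 2 fractions were read at different lengths. For MCL1 exon 2 the effective length of the skipping form was 144 nt in whole cells and 73 nt in the cytoplasm. A difference between fractions, in level or in change, therefore cannot be told apart from one of read length.

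The abundance of 5 of the 9 genes differed after CHERP siRNA in at least 1 fraction. FAS rose and BCL2L11 fell in both fractions, MCL1 rose in whole cells, BCL2L1 rose in the cytoplasm and CASP8 fell in the cytoplasm. Abundance is the sum over the cassette exon and alternative splice site events of a gene of reads per base of effective length, scaled between libraries, and so can be compared between libraries but not between genes. In whole cells 2 of the 8 genes with enough reads were higher and 1 was lower at an adjusted p under 0.05, beside 13.4% and 13.3% of all genes tested. In the cytoplasm 2 of 9 were higher and 2 lower, beside 20.2% and 18.7%. The median log2 fold change was 0.13 over the 8 genes in whole cells and 0.03 over the 9 in the cytoplasm, beside 0.02 and 0.01 over all genes.

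FAS had the largest change of the 9 genes in both fractions. Its whole-cell abundance was 1.07 and 0.940 after EGFP siRNA and 3.01 and 3.70 after CHERP siRNA, a rise of 3.30-fold (log2 fold change 1.72, SE 0.17, limma adjusted p = 0.00807). Both CHERP libraries stood well above both controls, and the call was kept without any 1 library. In the cytoplasm the values were 0.271 and 0.176 against 0.542 and 0.877, a rise of 3.06-fold (log2 fold change 1.61, SE 0.31, adjusted p = 0.0199). The cytoplasmic call was lost without the second EGFP library (log2 fold change 1.32, adjusted p = 0.0694) and without the read minimum (adjusted p = 0.0618).

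BCL2L11 fell in both fractions. Its abundance was 0.550 and 0.512 against 0.334 and 0.289 in whole cells, 1.68-fold lower after CHERP siRNA (log2 fold change -0.75, SE 0.14, limma adjusted p = 0.0248), and 0.620 and 0.719 against 0.362 and 0.313 in the cytoplasm, 1.96-fold lower (log2 fold change -0.97, SE 0.14, adjusted p = 0.0103). The groups did not overlap in either fraction. All BCL2L11 segments lie opposite MIR4435-2HG, so reads of that antisense gene cannot be told apart in these sums either. The cytoplasmic call was kept under every alternative run. The whole-cell call was lost without the first EGFP library (adjusted p = 0.0526), the first CHERP library (0.0950) or the second CHERP library (0.177), and without the read minimum (0.0523).

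MCL1 and BCL2L1 each passed in 1 fraction, and the difference between fractions was not called for either. MCL1 abundance in whole cells was 2.69 and 2.59 against 3.89 and 3.67, a rise of 1.43-fold (log2 fold change 0.52, SE 0.13, limma adjusted p = 0.0448). In the cytoplasm it was 1.03 and 0.932 against 1.13 and 1.17 (log2 fold change 0.23, SE 0.11, adjusted p = 0.162). The MCL1 values rest on 1 event in each fraction. The whole-cell call of MCL1 stood close to the threshold and was lost without any 1 library, with adjusted p of 0.0581 and 0.0684 without the first and second EGFP library and 0.284 and 0.224 without the first and second CHERP library. It was also lost without the read minimum (0.0781), with scaling to total reads (0.0590) and with the median over events (0.0746). With 1 event the median equals the sum, so this last alternative moves the adjusted p of MCL1 only through the other genes.

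BCL2L1 abundance in the cytoplasm was 0.876 and 0.903 against 1.18 and 1.33, a rise of 1.40-fold (log2 fold change 0.49, SE 0.12, limma adjusted p = 0.0316). In whole cells the values were 2.48 and 2.67 against 3.51 and 3.13 and did not pass (log2 fold change 0.36, SE 0.14, adjusted p = 0.118). Both values rest on 1 event, the segment that ABALON overlaps, so reads of that antisense gene cannot be told apart here either. With 1 event the median over events equals the sum, and that alternative moves the adjusted p of BCL2L1 only through the other genes. The cytoplasmic call was lost without any 1 library, at adjusted p of 0.113, 0.0972, 0.0567 and 0.114 without the first EGFP, second EGFP, first CHERP and second CHERP library, and without the read minimum (0.0795), with total-read scaling (0.0574) and with the median over events (0.0576).

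CASP8 abundance in the cytoplasm was 3.76 and 3.73 against 2.26 and 2.56, 1.55-fold lower after CHERP siRNA (log2 fold change -0.63, SE 0.12, limma adjusted p = 0.0176). In whole cells the values of 7.95 and 9.56 against 5.72 and 7.33 did not overlap either, but did not pass (log2 fold change -0.43, SE 0.19, adjusted p = 0.160). The cytoplasmic call was lost without the first EGFP (0.0714), the second EGFP (0.0680) or the first CHERP library (0.0658), and without the read minimum (0.0549).

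The other 4 genes did not pass in either fraction. The log2 fold changes of CFLAR were 0.32 (SE 0.21, limma adjusted p = 0.294) in whole cells and 0.03 (SE 0.13, 0.894) in the cytoplasm. The cytoplasmic values of CFLAR and CASP9 and the whole-cell value of CASP2 rest on 1 event each. The authors' cytoplasmic means of CFLAR, given further below, differ by 1.84-fold between their 2 conditions. BID had log2 fold changes of -0.12 (SE 0.27) and 0.18 (SE 0.17), and CASP2 of -0.07 (SE 0.14) and -0.08 (SE 0.13). CASP9 could be tested in the cytoplasm alone, with a log2 fold change of 0.01 (SE 0.24). The BID, CASP2 and CASP9 values thus lay within about 1 SE of 0. Groups that do not overlap are common with 2 libraries each: they were found for 70.1% of all genes tested in whole cells and 75.1% in the cytoplasm.

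**Figure D3:**
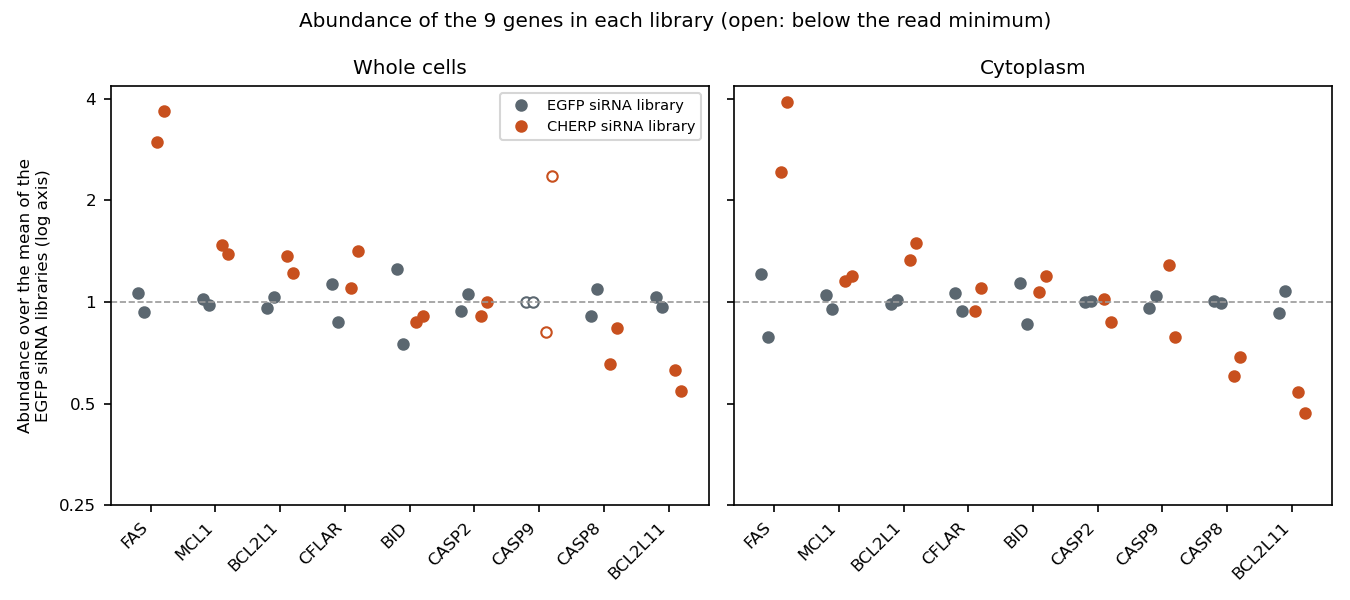
Abundance of each gene in each library, divided by the mean of the EGFP siRNA libraries of the same fraction, on a log axis, with open points for CASP9 in whole cells, which was below the read minimum. FAS lies highest and BCL2L11 lowest in the CHERP libraries of both fractions among the genes tested.

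A test of the difference in abundance change between fractions called 0 of 6505 genes with limma (332 at an unadjusted p under 0.05), which is 0% of them, and none of the 7 of the 9 genes that it covered. The change in the cytoplasm minus that in whole cells, on the log2 scale, was -0.27 (SE 0.16) for MCL1, -0.19 (SE 0.23) for CASP8 and -0.17 (SE 0.40) for FAS. It was -0.39 (SE 0.26) for CFLAR, -0.29 (SE 0.20) for BCL2L11, 0.14 (SE 0.18) for BCL2L1 and 0.36 (SE 0.32) for BID, and the adjusted p was 0.998 for all 7. This comparison was added after seeing the data, and the difference in read length between fractions applies to it too.

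Of 42 other genes of the pathway, 26 had enough reads in whole cells, where 5 were higher and 4 lower after CHERP siRNA, beside 13.4% and 13.3% of all genes tested, and 23 in the cytoplasm, where 4 were higher and 4 lower, beside 20.2% and 18.7%. These counts are close to the shares over all genes. The median log2 fold change of these genes was 0.14 in whole cells and 0.16 in the cytoplasm. The list was chosen with earlier results of these data known. The values of APAF1 that follow rest on 1 event. APAF1, the scaffold of the apoptosome, was 0.290 and 0.362 against 0.117 and 0.137 in whole cells (log2 fold change -1.29, SE 0.17, limma adjusted p = 0.0128), a call lost without the first CHERP library (0.0514).

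Among the 11 receptors and adaptors of the list, 2 of 4 tested in whole cells and 2 of 3 in the cytoplasm were higher and 0 were lower. Over all genes tested, 13.4% and 20.2% were higher. With so few genes tested, these counts say nothing on the receptors and adaptors as a group. The 2 that were higher were TNFRSF10B, a receptor for the ligand TRAIL, and RIPK1, a kinase in death receptor complexes. TNFRSF10B was 5.99 and 4.93 against 11.2 and 11.9 in whole cells (log2 fold change 1.08, SE 0.16, limma adjusted p = 0.0143) and its log2 fold change was 0.92 (SE 0.15, adjusted p = 0.0133) in the cytoplasm. The whole-cell call of TNFRSF10B was lost without the first (0.0538) or the second CHERP library (0.0687) and the cytoplasmic call without the second EGFP library (0.0551). RIPK1 had log2 fold changes of 0.81 (SE 0.13, adjusted p = 0.0182) and 0.64 (SE 0.16, adjusted p = 0.0372). Its whole-cell call was lost without the first (0.0807) or the second CHERP library (0.132) and with the median over events (0.0609). The cytoplasmic call of RIPK1 was lost without the first EGFP (0.121), the second EGFP (0.116) or the first CHERP library (0.0935), without the read minimum (0.0907), with total-read scaling (0.0552) and with the median over events (0.0532).

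Of the BCL2 family outside the 9 genes, BCL2A1, a pro-survival member, had whole-cell abundances of 0.0449 and 0.0818 against 0.291 and 0.441 (log2 fold change 2.38, SE 0.33, limma adjusted p = 0.0133), the largest change of the 6 list genes named here. This value rests on 1 event, with 6 and 14 reads after EGFP siRNA and 46 and 66 after CHERP siRNA. Both EGFP libraries lay below 20 reads, so BCL2A1 met the read minimum only through the CHERP libraries, in which it was high. BAK1, a pore-forming effector, was 2.56 and 2.85 against 4.52 and 4.66 in the cytoplasm (log2 fold change 0.76, SE 0.11, adjusted p = 0.0111), which was lost without the first EGFP library (0.0501), and did not pass in whole cells (log2 fold change 0.73, adjusted p = 0.0615). ACIN1, a splicing-associated protein cleaved in apoptosis, had log2 fold changes of -0.58 (SE 0.13, adjusted p = 0.0327) and -0.70 (SE 0.16, adjusted p = 0.0279). Its whole-cell call was lost without the second EGFP (0.0535), the first CHERP (0.234) or the second CHERP library (0.193), without the read minimum (0.0620) and with the median over events (0.0605). The cytoplasmic call of ACIN1 was lost without the first EGFP (0.101), the second EGFP (0.0899) or the second CHERP library (0.0769) and without the read minimum (0.0752).

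**Figure D4:**
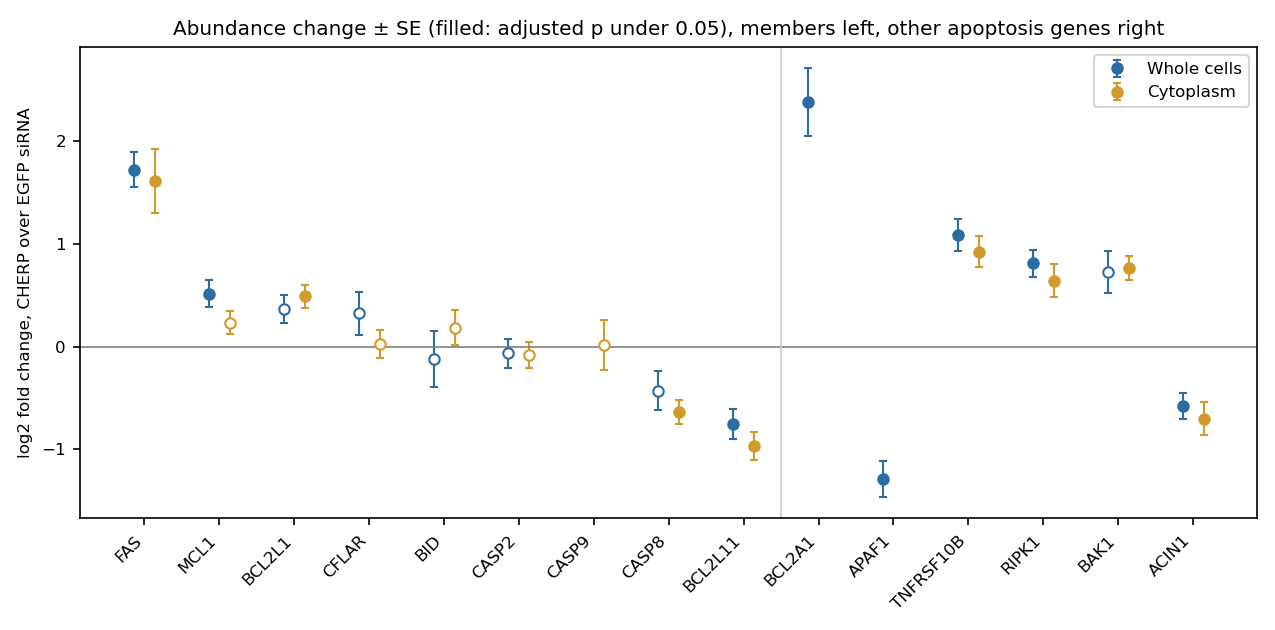
log2 fold change in abundance (CHERP over EGFP siRNA) with SE in whole cells and cytoplasm, the 9 genes left and the 6 other apoptosis genes named right, filled where the limma adjusted p is under 0.05. FAS and BCL2L11 are filled in both fractions, as are TNFRSF10B, RIPK1 and ACIN1.

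The deposited expression table of the cytoplasm lists 6757 genes, among them 6 of the 9, and gives the authors' mean of normalized counts for 2 conditions, C1 and C2, whose column names do not say which siRNA they stand for. BID, CASP2 and CASP9 are not in it. The authors' means in C1 and C2 were 342 and 97.3 for FAS, 172 and 352 for BCL2L11, 549 and 713 for CASP8, and 800 and 434 for CFLAR. They were 11870 and 7811 for BCL2L1 and 4611 and 3896 for MCL1. CHERP had authors' means of 209 and 1685 in the same columns.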

How the data were processed

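The authors sequenced TruSeq stranded mRNA libraries on a NextSeq instrument, mapped the reads to hg19 with STAR 2.5.2b, and ran rMATS, whose version is not given in the sources used here. The deposited tables, 10 in all (5 event types, 2 fractions) hold the counts of inclusion and skipping reads of each library, without normalization, and the effective length of each form. The 20 deposited columns of inclusion levels (a fraction per library) were not used, since levels were recomputed here from reads and lengths. The tables also hold the authors' p-value, FDR and difference in inclusion level, and the expression table their posterior probabilities and fold ratios, none of which was used. The cytoplasmic expression table was made by the authors with RSEM 1.2.25 on GENCODE 19 and EBSeq, and its signal is the authors' mean of normalized counts per condition.

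Every cell of a table joins 2 libraries without a replicate number, and they are called first and second in that order as names only. Each event was tested with a quasi-binomial model whose Pearson dispersion was moderated across events of its type by squeezeVar of limma 3.58.1 in R 4.3.3 (trend on mean reads, floor at 1). The prior was infinite in every table, so that an event took the dispersion of its type at its depth. The Benjamini-Hochberg adjustment was made over all events of a type, with a threshold of 0.05. Abundance was scaled by median ratios and its log2(value + 0.01) was compared with limma, where a gene averaged 20 or more reads per library. A fold change is on that log2 scale and understates changes of low genes. Wilson intervals at 95% cover counting error only. The p-value of an event rests on the dispersion of its type at its depth, not on the spread between its own libraries. The p-value of an abundance rests on the spread between 2 libraries per group, moderated across genes by limma.

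Each segment is shown by 1 event, chosen first for being listed in both fractions and then for having the most reads. Named events are the known switches and, for a gene without one, its segment with the most reads, and named other genes are the 8 of the list with the largest change among those that passed, 2 of which are not reported here. The 9 genes, the lists and the tests were chosen with earlier results of these data known. Exons were numbered by GENCODE 44 lifted to GRCh37. Tables were handled in R with version 1.17.8 of the package data.table and in Python 3.11.15 with pandas 2.3.3, numpy 2.4.6 and matplotlib 3.10.9. Protein sequences were not used here. Alternatives were other dispersion rules, read minimums, scalings and pseudocounts, limma on log2 odds, and leaving out each library.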

Additional observations from a re-analysis of the deposited data

How the results depend on the processing

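No paired analysis was possible because the libraries joined in each table cell carry no replicate number. The count of events called among the 9 genes stayed at 0 in whole cells under every alternative and rose to 1 in the cytoplasm, CASP2 intron 8, with no dispersion trend and with the prior from events with 10 reads of the rarer form. Over all events the count called moved from 1001 to between 329 and 1947 in whole cells and from 178 to between 52 and 482 in the cytoplasm, apart from limma on log2 odds, which called 0 and so says nothing on these genes. Without 1 library, 0 known switches and 0 interactions were called. Without the read minimum, 1 of the 9 genes passed in whole cells, 1 in the cytoplasm and 4 of the apoptosis list in the cytoplasm, and with the median over events 4 list genes passed in each fraction. Leaving out 1 library gave 1 to 2 of the 9 genes and 3 to 10 list genes in whole cells, and 1 to 3 and 3 to 5 in the cytoplasm. Of the values for single genes, 195 kept direction and side of the threshold, 47 lost the call, 2 gained it and 11 reversed, and of those for single segments 213, 0, 2 and 19. With total-read scaling the cytoplasmic log2 fold changes of CASP9 and CFLAR turned to -0.0847 and -0.0719.

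Differences in level (CHERP minus EGFP) that changed sign without 1 library ranged, in whole cells, from -0.00753 to 0.00701 for MCL1 exon 2, -0.401 to 0.00524 for BCL2L11 exon 2 end, -0.492 to 0.0235 for its inner exon, -0.161 to 0.611 for its inner intron, -0.0906 to 0.0473 for BID exon 3, -0.0140 to 0.0629 for the CASP2 cassette exon, -0.0508 to 0.0265 for CASP8 exon 6 and -0.0145 to 0.0116 for its exon 7 end. In the cytoplasm they ranged from -0.00169 to 0.0377 for MCL1 exon 2, -0.00501 to 0.0871 for BCL2L1, -0.0732 to 0.243 for the BCL2L11 inner intron, -0.0297 to 0.0403 for BID exon 2, -0.0455 to 0.0778 for CASP8 exon 5 and -0.0319 to 0.0155 for its exon 6. Of differences that kept their sign, FAS exon 6 ranged from 0.0131 to 0.116 (whole cells) and 0.156 to 0.367 (cytoplasm) and CFLAR exon 2 from -0.214 to -0.0593 and -0.148 to -0.0482. Log2 fold changes that changed sign ranged from -0.485 to 0.237 (whole cells) and -0.0139 to 0.379 (cytoplasm) for BID, -0.157 to 0.0184 and -0.189 to 0.0439 for CASP2, and, in the cytoplasm, -0.309 to 0.356 for CASP9 and -0.0691 to 0.139 for CFLAR. The causes were not tested. Where the rarer form had few reads, as in BCL2L11 and FAS, the intervals of the odds ratios were wide.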
